A study of Mus musculus with 11 samples.

Results

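The genes described here are 2 murine members of the TCL1 family and 7 genes of the AKT pathway, 9 of the 19937 genes measured. They are Tcl1 and Tcl1b1, the PI3K subunit genes Pik3cd and Pik3r1, the lipid phosphatase gene Inpp5d, the kinase genes Akt1 and Akt2, and the transcription factor genes Foxo1 and Foxo3. They were chosen by name, as genes of the TCL1 oncogene family and of the kinase pathway its proteins act on. Earlier results of these data were known when the genes were chosen. Each gene was read from the array row that carries its symbol alone. Where a gene had several such rows, the row with the highest mean was used.

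RNA from splenic T-cells of mice was hybridised to 11 arrays of a whole-transcript design. The exponential group held 5 arrays of Lckpr-TCL1A+/- mice at an average age of 15 months, when over 80% of blood cells and over 90% of spleen cells were tumor cells. The chronic group held 3 arrays of the same genotype at an average age of 12 months, with between 30 and 70% tumor cells. The wild-type group held 3 arrays of age-matched C57BL/6 mice, and each of these arrays pooled RNA of 3 mice. Leukemic mice carry the human TCL1A gene under the proximal Lck promoter, which is active early in thymocyte development. The rows used here are those of mouse genes, so the transgene itself was not analysed. Leukemic cells had been enriched for CD8+ T-cells and wild-type cells for CD3+ T-cells of all kinds. Genotype and cell selection therefore cannot be told apart in any difference against wild type. Nothing in the labels says that each leukemia array is a separate mouse, and p-values therefore cover the spread from array to array, which may be technical.

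TCL1 proteins have no enzymatic activity and bind the AKT kinases, whose activation they enhance. In T-cells, receptor and cytokine signals activate PI3K, which makes a membrane lipid that recruits AKT for phosphorylation. AKT then phosphorylates FOXO transcription factors, which leave the nucleus, and it relieves the TSC complex's brake on mTORC1. Lipid phosphatases such as SHIP1 remove the lipid signal, and PHLPP phosphatases remove phosphate from AKT itself. Most of this control is exerted on proteins, and the arrays read mRNA only.

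The T-cell identity of the arrays was checked first. Cd3e, a subunit of the T-cell receptor complex, lay between 6.85 and 8.32 on the log2 scale in all 11 arrays. Cd8a lay between 7.94 and 8.20 in 4 exponential arrays and at 2.96 in exponential array 4, against 8.12, 7.96 and 6.71 in chronic arrays and 8.31, 6.16 and 6.66 in wild-type arrays. In the same exponential array 4, Cd8b1 was at 4.33 and Cd4 at 5.18, so that array goes against the CD8 enrichment given in the study's methods. The other exponential arrays had Cd4 between 2.15 and 2.44, chronic arrays between 1.79 and 2.59, and wild-type arrays between 4.21 and 4.62. B-cell markers (7 measured genes) were also read, as the log2 of their summed linear level. The sum lay between 6.26 and 8.86 in exponential, 5.58 and 7.73 in chronic, and 5.77 and 7.74 in wild-type arrays. Among these markers Ms4a1 lay between 4.88 and 7.91, 3.43 and 6.79, and 3.62 and 6.51 in the same order of groups. B-cell signal was thus present beside that of T-cells, and its part in the differences was not tested. Values without array 4 are given beside printed differences of pathway genes, in the row kept for each gene. They are given where leaving array 4 out gained a call, turned the direction or moved the difference by over 1.5 times.

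The upstream sequences below, of 250 bases each, are shown because they hold the core motif that FOXO factors bind, the last step of the pathway described here. Each run ends at the base before the gene's start in RefSeq (GRCm38.p6) and reads 5′ to 3′ on the gene's own strand, with the motif in capitals. Akt1 is the only one of the 9 genes with a match, at chr12:112674885-112675134 (minus strand), and Bcl2l11 (chr2:128125788-128126037) and Btg1 (chr10:96616751-96617000, both plus strand) are FOXO target genes.
Akt1: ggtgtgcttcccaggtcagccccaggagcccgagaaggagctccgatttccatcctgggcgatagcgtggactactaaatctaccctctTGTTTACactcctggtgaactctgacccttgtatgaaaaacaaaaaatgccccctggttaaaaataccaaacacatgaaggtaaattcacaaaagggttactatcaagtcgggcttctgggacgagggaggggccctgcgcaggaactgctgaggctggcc
Bcl2l11: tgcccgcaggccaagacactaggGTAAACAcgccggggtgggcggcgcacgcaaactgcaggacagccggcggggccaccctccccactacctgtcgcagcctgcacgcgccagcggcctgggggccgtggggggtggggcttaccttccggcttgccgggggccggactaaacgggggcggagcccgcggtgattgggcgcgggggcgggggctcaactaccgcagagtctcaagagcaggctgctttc
Btg1: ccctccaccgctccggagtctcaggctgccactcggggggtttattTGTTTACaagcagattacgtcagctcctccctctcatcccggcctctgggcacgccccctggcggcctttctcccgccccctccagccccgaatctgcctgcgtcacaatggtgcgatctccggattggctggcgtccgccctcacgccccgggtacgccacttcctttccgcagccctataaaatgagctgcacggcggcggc
The letters searched were GTAAACA and, for the other strand, TGTTTAC, in windows of 250 bases before and 50 bases after each start. A match was present in 1 of the 9 genes (Akt1, beginning 161 bases before the start) and in 3 of 12 FOXO target genes with a window (Bcl2l11, Btg1 and Sesn1), against 4.05% of all 27025 genes with a window. A match is a description of letters and not evidence of binding.

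**Figure D1:**
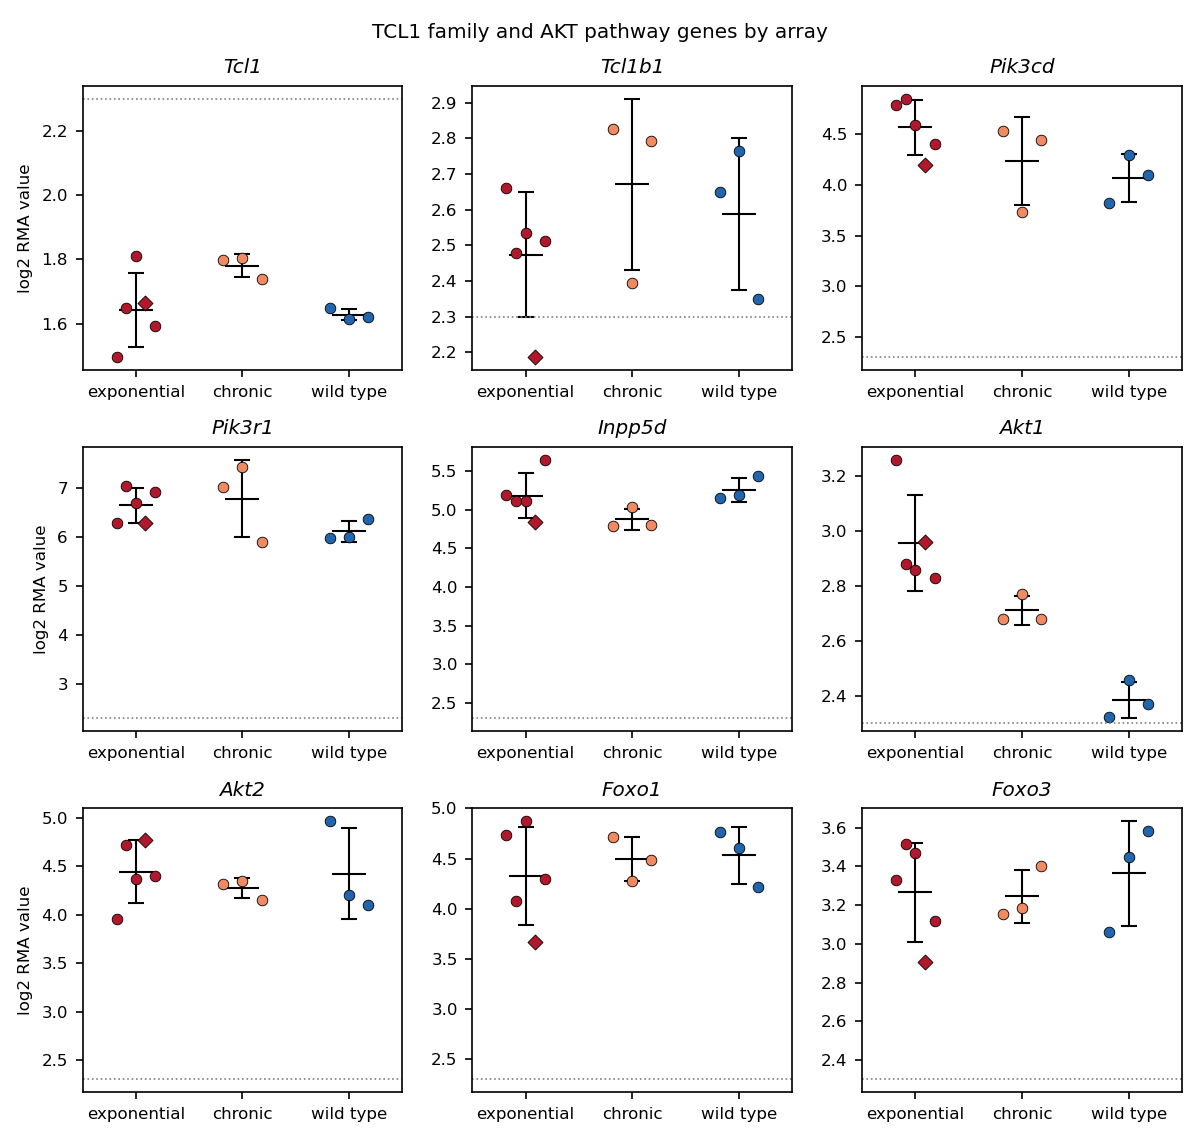
Log2 RMA value (vertical axes, each on its own scale) of the 9 genes in exponential, chronic and wild-type arrays. Points are single arrays, the diamond is exponential array 4, bars are the mean ± SD, and the dotted line is the median of all rows (2.30). Akt1 alone is ordered exponential, chronic, wild type with no overlap, and Tcl1 lies below the dotted line in all arrays.

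Tcl1, the mouse counterpart of the human transgene, is normally silent in mature T-cells. It was at 1.49, 1.65, 1.81, 1.66 and 1.59 in exponential arrays, at 1.80, 1.80 and 1.74 in chronic arrays, and at 1.65, 1.61 and 1.62 in wild-type arrays. All 11 values lay below the median of all rows, 2.30, and the mean over arrays stood at percentile 7.3 of all genes. The 3 chronic arrays lay above the 3 wild-type arrays without overlap, while exponential arrays spread over both. In that comparison the groups did not overlap, in either direction, for 15.8% of all genes, and among the 9 genes for Tcl1, Akt1 and Inpp5d. The difference was 0.15 for chronic against wild type (SE 0.11, limma adjusted p = 0.700) and 0.01 for exponential against wild type (SE 0.10, adjusted p = 0.983), or 0.0089 without exponential replicate 4. Over all arrays Tcl1 covered a range of 0.32, at percentile 5.1 of the ranges of all genes.

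Tcl1b1, one of the mouse-specific paralogs that lie beside Tcl1 on chromosome 12, showed no separation of the groups. Exponential arrays had 2.66, 2.48, 2.53, 2.19 and 2.51, chronic arrays 2.83, 2.40 and 2.79, and wild-type arrays 2.65, 2.76 and 2.35. The groups overlapped in every comparison, and the lowest of the 11 values was exponential array 4. The differences were -0.11 for exponential against wild type and 0.08 for chronic against wild type (adjusted p = 0.868 and 0.925), and without exponential replicate 4 the first was -0.041.

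Of the other measured Tcl1 family genes, Tcl1b2 averaged 1.48 ± 0.31 in exponential, 1.47 ± 0.28 in chronic and 1.59 ± 0.13 in wild-type arrays (SD, n = 5, 3 and 3). Tcl1b4 averaged 2.11 ± 0.17, 2.30 ± 0.41 and 2.12 ± 0.15 in the same order of groups. Tcl1b3 was 0.30 higher in chronic than in wild-type arrays (adjusted p = 0.381), without overlap, and all of its values lay under 1.9. Tcl1b5 was at 3.41, 2.73, 3.12, 2.99 and 3.09 in exponential arrays, at 2.53, 2.29 and 2.78 in chronic arrays, and at 3.55, 3.07 and 2.57 in wild-type arrays, with only 1 value, in chronic array 2, below the median of all rows. Its difference for chronic against wild type was -0.53 (adjusted p = 0.506), and -0.29 without wild type replicate 1. Of the 6 measured genes of the 7 in the family, 0 were called in any comparison. Mtcp1 shares its row with another gene and was not used. Closely related paralogs can share probe signal, so these levels are uncertain for single genes.

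A gene was called when limma gave an adjusted p under 0.05, over all 19937 genes, and a fold of at least 1.5. Under this rule 0 of the 9 genes were called in any of the 4 comparisons. Over all genes the called share was 0.456% for chronic against wild type, 0.416% for exponential against wild type, 0% for exponential against chronic and 0.722% for all leukemias against wild type. At an unadjusted limma p under 0.05 there were 2, 3, 0 and 1 of the 9 genes in those comparisons, against 11.16%, 9.78%, 6.25% and 10.57% of all genes, and the methods' t-test gave 3, 2, 0 and 1. The median difference of the 9 genes was 0.08, 0.01, 0.02 and -0.04, and that of all genes lay between -0.00 and 0.01.

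Among the PI3K subunits, Pik3cd encodes p110-delta, the catalytic subunit used mainly by leukocytes. It was at 4.79, 4.85, 4.59, 4.20 and 4.41 in exponential arrays, at 4.53, 3.74 and 4.45 in chronic arrays, and at 3.82, 4.29 and 4.10 in wild-type arrays. Of the exponential arrays, 4 lay above all wild-type arrays, and array 4 fell within the wild-type range. The difference for exponential against wild type was 0.50 (SE 0.17, 95% interval 0.12 to 0.88, adjusted p = 0.335), and it was 0.59 without exponential replicate 4 (adjusted p = 0.119). Chronic arrays differed from wild type by 0.17 (SE 0.23, adjusted p = 0.878), a value between 0.020 without chronic replicate 1 and 0.42 without chronic replicate 2.

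Pik3r1 encodes the p85-alpha regulatory subunit, which stabilizes and restrains the catalytic subunits. It had the widest range of the 9 genes, 1.53 over all arrays, at percentile 92.2 of the ranges of all genes. Its values were 6.29, 7.05, 6.69, 6.29 and 6.92 in exponential arrays, 7.03, 7.43 and 5.90 in chronic arrays, and 5.98, 6.01 and 6.36 in wild-type arrays. Chronic arrays 1 and 2 lay above every wild-type array and chronic array 3 below all of them. The difference for exponential against wild type was 0.53 (SE 0.20, 95% interval 0.09 to 0.97, adjusted p = 0.392). For chronic against wild type it was 0.67 (SE 0.36, 95% interval -0.16 to 1.5, adjusted p = 0.576), and it was 1.11 without chronic replicate 3 (adjusted p = 0.0693) and 0.35 without chronic replicate 2.

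Over the whole list of PI3K subunits 0 of 11 genes were called. Against wild type, 8 of 11 had a positive difference in exponential arrays and 7 of 11 in chronic arrays, with medians of 0.03 and 0.13. Pik3r5, a regulatory subunit of the gamma isoform, was 0.46 higher in chronic arrays (SE 0.17, adjusted p = 0.375), and Pik3r3 0.24 higher (adjusted p = 0.506). Pik3cg, the gamma catalytic subunit, was 0.46 lower in exponential than in chronic arrays (adjusted p = 0.821), with -0.19 without chronic replicate 3 and -0.72 without chronic replicate 1. Pik3cb, the beta catalytic subunit, was 0.36 higher in all leukemias than in wild type (adjusted p = 0.550).

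Inpp5d encodes SHIP1, the inositol phosphatase of blood cells that removes a phosphate from the PI3K product. Exponential arrays had 5.19, 5.12, 5.11, 4.84 and 5.64, chronic arrays 4.79, 5.03 and 4.81, and wild-type arrays 5.15, 5.19 and 5.44. The 3 chronic arrays lay below the 3 wild-type arrays without overlap, and exponential arrays spread across both groups. The difference for chronic against wild type was -0.39 (SE 0.13, 95% interval -0.70 to -0.07, adjusted p = 0.333), that for exponential against wild type was -0.08 (adjusted p = 0.938) but 0.0070 without exponential replicate 4, and that for exponential against chronic was 0.31 (95% interval -0.07 to 0.68, adjusted p = 0.821).

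The other phosphatases of the pathway included the single call of all lists. Inpp4b, which removes the 4-phosphate from a PI3K-derived lipid, was at 5.98, 4.93, 6.19, 7.15 and 4.25 in exponential arrays, at 5.80, 4.79 and 5.13 in chronic arrays, and at 7.15, 7.30 and 7.25 in wild-type arrays. Every chronic array lay below every wild-type array, and of the exponential arrays array 4 alone reached the wild-type level. Inpp4b was lower in chronic arrays by a log2 difference of -1.99 (SE 0.24, adjusted p = 0.0264), which is 3.98-fold. The call was lost without any 1 of the 3 wild-type arrays (adjusted p = 0.0959, 0.118 and 0.0943), in 1 fit over all groups (adjusted p = 0.190), with all rows tested together (0.130) and in the methods' t-test (0.339). For exponential against wild type the difference was -1.53 (SE 0.54, adjusted p = 0.361), and -1.89 without exponential replicate 4 (adjusted p = 0.0659).

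Phlpp1, an AKT phosphatase, was lower in all 8 leukemia arrays than in any wild-type array. It had 2.66, 2.37, 2.58, 2.90 and 2.60 in exponential arrays, 2.35, 2.18 and 2.28 in chronic arrays, and 2.99, 3.14 and 2.95 in wild-type arrays. The Phlpp1 signal was dim, with chronic values close to the median of all rows, 2.30. The difference was -0.75 for chronic against wild type (SE 0.12, adjusted p = 0.0506, called under 4 of the alternatives) and -0.40 for exponential against wild type (SE 0.12, adjusted p = 0.268). Inpp4a, a relative of Inpp4b, was -0.73 apart in chronic against wild type (adjusted p = 0.0741). It is outside the rule for named genes and was chosen after its values were seen. Its chronic values, between 2.49 and 2.58, were also dim. For all leukemias against wild type, Inpp4b, Phlpp1 and Inpp4a differed by -1.70, -0.54 and -0.53 (adjusted p = 0.167, 0.125 and 0.213). Without exponential replicate 4, these 3 genes were called lower, by -1.94, -0.59 and -0.62 (adjusted p = 0.0205, 0.0286 and 0.0147). In that setting 273 of 19937 genes were called, against 144 with all arrays. Array 4 held the highest exponential value of each of the 3 genes, with Inpp4a at 3.36. Of the 11 arrays left out in turn, exponential array 4 alone gave a call for Inpp4b and for Phlpp1 in all leukemias. With another array left out, their limma adjusted p reached 0.447 and 0.359.

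The list of genes that limit the pathway held 7 measured genes, all phosphatases except Pik3ip1, a membrane inhibitor of PI3K. In chronic against wild type its median was -0.39, and the 6 phosphatases had negative differences, without overlap except for Phlpp2. Pik3ip1 was 0.47 higher in chronic arrays without overlap (SE 0.16, adjusted p = 0.327). The groups thus did not overlap for 6 of 7 genes, against 15.8% of all genes, dim ones included. This list was chosen with earlier results of these data known. In exponential against wild type 5 of 7 were negative, with a median of -0.08, against 0.01 over all genes. Markers of CD4 T-cells were also lower in chronic than in wild-type arrays. Like them, Inpp4b, Inpp4a and Phlpp1 had their highest exponential value in array 4. Inpp5d and Pik3ip1 instead had their lowest exponential value there, 4.84 and 3.43. Without array 4, Inpp5d averaged 5.27 in exponential arrays, against 5.26 in wild-type arrays. The log2 of the summed linear level of Cd4 and Cd40lg lay between 2.93 and 5.59 in exponential arrays, with the highest in array 4, between 2.71 and 3.51 in chronic arrays, and between 5.21 and 5.59 in wild-type arrays. Fewer CD4 T-cells and less mRNA per cell cannot be told apart in bulk RNA, and their part in the result was not tested.

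**Figure D2:**
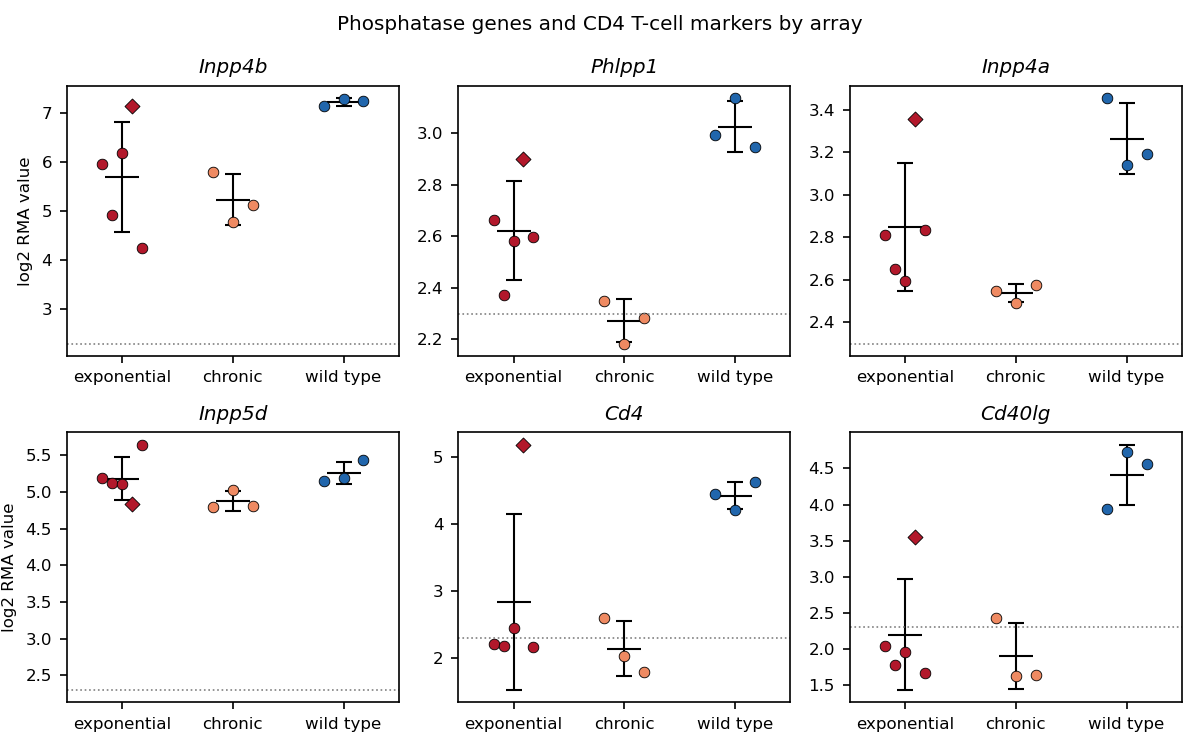
Log2 RMA value (vertical axes, each on its own scale) of Inpp4b, Phlpp1, Inpp4a and Inpp5d and of the CD4 T-cell markers Cd4 and Cd40lg in exponential, chronic and wild-type arrays, with points for arrays, a diamond for exponential array 4, the mean ± SD as bars and a dotted line at the median of all rows. Exponential array 4 had Inpp4b at 7.15 and Cd4 at 5.18, near or above the wild-type arrays in both.

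Akt1, the broadly expressed AKT isoform, had the smallest adjusted p of the 9 genes in each comparison. Its values were 3.26, 2.88, 2.86, 2.96 and 2.83 in exponential arrays, 2.68, 2.77 and 2.68 in chronic arrays, and 2.32, 2.46 and 2.37 in wild-type arrays. Every exponential array lay above every chronic array, and every chronic array above every wild-type array. This order without overlap, in either direction, was present in 9 of 19937 genes, or 0.0451%, and Akt1 was singled out for it after its values were seen. The groups did not overlap in either direction for 6.78% of all genes in exponential against wild type, 4.55% in exponential against chronic and 3.31% in all leukemias against wild type, and of the 9 genes only Akt1 was among them in each.

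The Akt1 means were 2.96 ± 0.18 in exponential, 2.71 ± 0.05 in chronic and 2.38 ± 0.07 in wild-type arrays (SD, n = 5, 3 and 3). For exponential against wild type the difference was 0.57 (SE 0.12, 95% interval 0.31 to 0.83, adjusted p = 0.0875), a fold of 1.49. For chronic against wild type it was 0.33 (SE 0.11, 95% interval 0.07 to 0.58, adjusted p = 0.317), and for exponential against chronic 0.25 (SE 0.12, 95% interval -0.01 to 0.51, adjusted p = 0.802). All leukemias against wild type gave 0.48 (SE 0.12, adjusted p = 0.0940). Leaving out exponential replicate 4 gave 0.57 against wild type (adjusted p = 0.0824). In 1 fit over all groups the adjusted p for exponential against wild type was 0.0485, with the fold still under 1.5.

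The Akt1 signal was dim, with wild-type values close to the median of all rows, 2.30. Summed myeloid markers (9 genes, log2 of the summed linear level) lay between 6.67 and 9.65 in exponential, 5.38 and 5.94 in chronic, and 5.41 and 5.82 in wild-type arrays. They were thus highest in the group where Akt1 was highest, while chronic and wild-type arrays overlapped in them. Among these markers S100a8 lay between 3.51 and 7.89 in exponential arrays, with the highest in array 4, and Itgam between 1.91 and 2.36. The listed markers did not all move alike. Lyz2 averaged 5.77 in exponential and 2.86 in wild-type arrays, while Mpo averaged 2.36 against 3.13 and Cd14 2.07 against 2.15. Summed erythroid markers (5 measured genes) ran the other way, between 4.66 and 6.53 in exponential, 4.70 and 9.56 in chronic, and 8.70 and 9.98 in wild-type arrays. Among them Car1, a carbonic anhydrase gene, was called lower in exponential than in wild-type arrays, with means of 2.94 ± 1.41 and 9.05 ± 0.66 (SD, n = 5 and 3) and a log2 difference of -6.11 (adjusted p = 0.0114). In wild-type array 1 Car1 was at 8.53 and the sum at 8.70, so Car1 made up most of it. Ermap and Epb42 differed by 0.17 and -0.004 in chronic against wild type. Their means were 2.82 and 1.99 in exponential arrays, against 3.57 and 2.19 in wild-type arrays. The part of either marker list in the Akt1 difference was not tested.

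**Figure D3:**
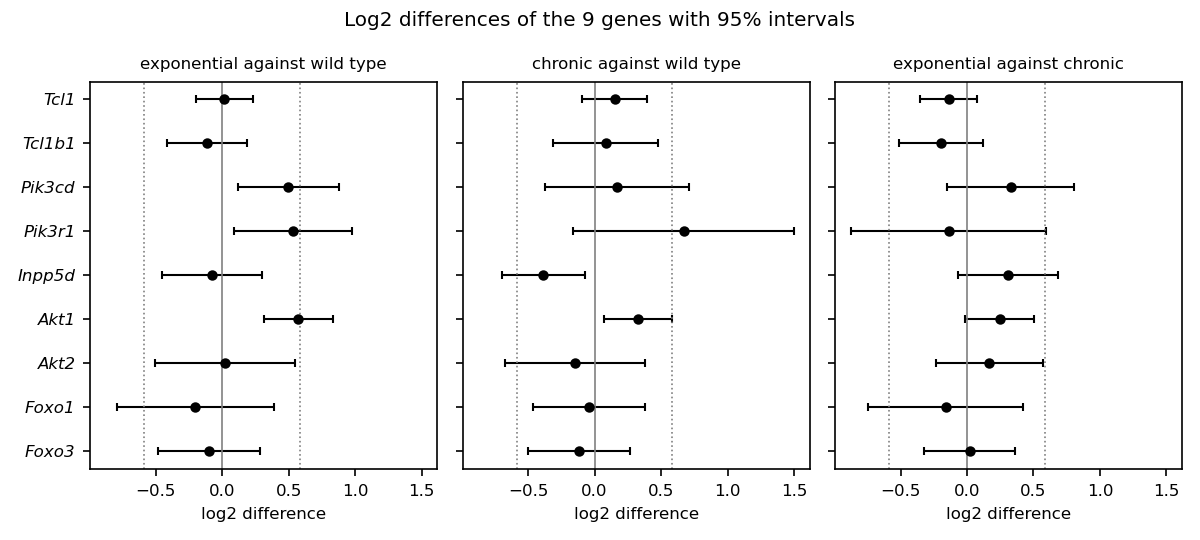
Log2 difference (horizontal axis) of the 9 genes for exponential against wild type, chronic against wild type and exponential against chronic, as points with 95% limma intervals. The solid line is 0 and dotted lines are a fold of 1.5 in either direction. The Akt1 interval for exponential against wild type, 0.31 to 0.83, lies above 0.

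Akt2, the isoform with a main role in insulin signaling, was represented by 2 rows. The row with the higher mean had 3.96, 4.71, 4.37, 4.77 and 4.39 in exponential arrays, 4.32, 4.35 and 4.15 in chronic arrays, and 4.97, 4.20 and 4.10 in wild-type arrays. The other row had 3.03, 3.36, 3.23, 3.66 and 3.28, then 3.11, 3.29 and 3.69, then 3.41, 3.40 and 3.57 in the same order of groups. In both rows the 3 groups overlapped.

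Rows with neighbouring numbers mostly carried genes of the same chromosome, and the surroundings of each row were therefore checked. Of the 40 annotated rows with the nearest numbers, 39 or 40 carried genes of the gene's own chromosome for the rows of the other 8 genes. For the Akt2 row with the higher mean, 39 of 40 carried genes of chromosome 11 and 0 carried genes of chromosome 7, where Akt2 lies. For the other Akt2 row, 40 of 40 carried genes of chromosome 7. What the brighter row measures was not tested. For exponential against wild type the brighter row differed by 0.02 (SE 0.24, adjusted p = 0.992), or -0.063 without exponential replicate 4, and the other row by -0.15 (SE 0.14, adjusted p = 0.822). For chronic against wild type the values were -0.15 and -0.10 (adjusted p = 0.894 and 0.912). The other row was not fitted without exponential array 4, where it had its highest exponential value, 3.66.

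**Figure D4:**
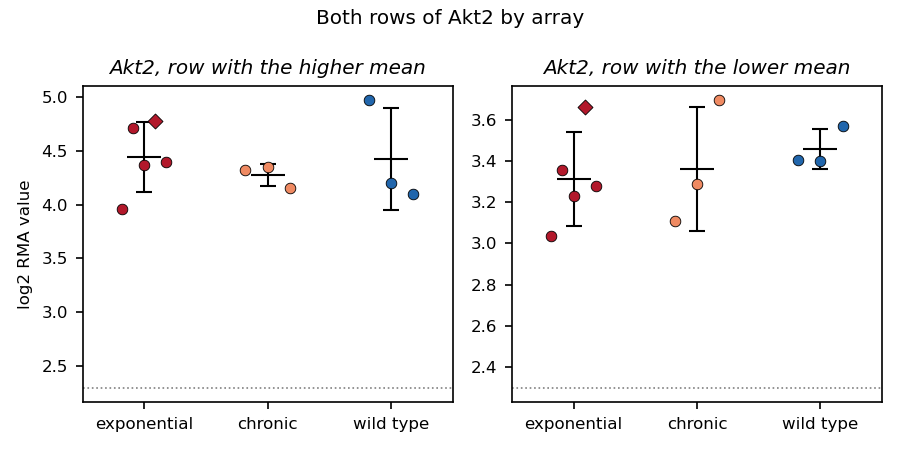
Log2 RMA value (vertical axes, each on its own scale) of the 2 rows annotated to Akt2 in exponential, chronic and wild-type arrays, with points for arrays, a diamond for exponential array 4, the mean ± SD as bars and a dotted line at the median of all rows. In the brighter row wild-type array 1, at 4.97, was the highest of all arrays, and in the other row it was at 3.41.

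In the list of AKT kinases and activators, which includes Akt1 and Akt2, 0 of 7 measured genes were called. Pdpk1, which phosphorylates AKT in its activation loop, was 0.22 lower in exponential than in wild-type arrays (adjusted p = 0.820), and differed by -0.11 without exponential replicate 4. Rictor, a subunit of mTORC2, which phosphorylates AKT at its C-terminal site, was 0.39 lower in chronic than in wild-type arrays (adjusted p = 0.735), with chronic array 3 at 4.56 and the other chronic arrays at 5.57 and 5.79, and the difference was -0.017 without chronic replicate 3. Mapkap1, another mTORC2 subunit, was 0.26 higher in exponential than in chronic arrays (adjusted p = 0.830), or 0.16 without exponential replicate 4. Mtor was 0.18 lower in all leukemias than in wild type (adjusted p = 0.760), and differed by -0.011 without wild type replicate 1.

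Foxo1 encodes the FOXO factor that maintains the naive T-cell program. It was at 4.73, 4.08, 4.88, 3.67 and 4.30 in exponential arrays, at 4.71, 4.27 and 4.49 in chronic arrays, and at 4.77, 4.61 and 4.22 in wild-type arrays. The lowest of all arrays was exponential array 4, and the groups overlapped in every comparison. Foxo1 differed by -0.20 for exponential against wild type (SE 0.26, 95% interval -0.79 to 0.39, adjusted p = 0.881), by -0.04 without exponential replicate 4, and by -0.04 for chronic against wild type (SE 0.18, 95% interval -0.46 to 0.38, adjusted p = 0.974).

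Foxo3, its relative with a role in T-cell survival and memory, was at 3.33, 3.51, 3.47, 2.90 and 3.12 in exponential arrays, at 3.15, 3.18 and 3.40 in chronic arrays, and at 3.06, 3.45 and 3.58 in wild-type arrays. Exponential array 4 was again the lowest of all arrays, and the groups overlapped. The differences were -0.10 for exponential and -0.12 for chronic against wild type (SE 0.17 and 0.16, adjusted p = 0.918 and 0.880), and without exponential replicate 4 the first was -0.0069. All 4 FOXO genes had negative differences against wild type in both phases, of which that of Foxo3 in the exponential phase was this close to 0 without array 4, with medians of -0.08 and -0.09, and 0 of 4 were called. Foxo6, a member known mainly from brain, was 0.36 lower in chronic than in wild-type arrays (adjusted p = 0.560), and differed by -0.20 without chronic replicate 2.

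Of the 9 genes, 5 had their lowest exponential value in array 4, and 3 of these (Tcl1b1, Foxo1 and Foxo3) had their lowest of all 11 arrays there. All 5 measured proliferation markers were also highest in that array, where Mki67 was at 8.48, while the other exponential arrays had 5.31 to 5.86.

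Downstream of AKT, 0 of 14 measured FOXO target genes were called in any comparison. Against wild type, 11 of 14 had a negative difference in exponential and 11 of 14 in chronic arrays, with medians of -0.32 in both, against -0.00 to 0.01 over all genes. Sesn3, a stress-induced inhibitor of mTORC1, was at 5.82, 5.53, 5.82, 5.78 and 5.99 in exponential arrays, at 5.26, 5.07 and 4.63 in chronic arrays, and at 6.43, 6.09 and 5.86 in wild-type arrays. Chronic arrays lay below both other groups without overlap, with differences of -1.14 against wild type (SE 0.21, adjusted p = 0.0802) and 0.80 for exponential against chronic (SE 0.16, adjusted p = 0.629). Sesn1, a relative of Sesn3, differed by -0.67 in chronic against wild type (SE 0.14, adjusted p = 0.117) and by -0.41 in exponential against wild type (SE 0.13, adjusted p = 0.305).

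Ccr7, the receptor that guides T-cells into lymph nodes, was at 7.50, 6.03, 7.22, 5.27 and 7.34 in exponential arrays, at 5.44, 4.58 and 4.30 in chronic arrays, and at 6.76, 5.98 and 5.56 in wild-type arrays. Its difference was -1.33 for chronic against wild type (SE 0.37, adjusted p = 0.221), 0.57 for exponential against wild type (SE 0.51, adjusted p = 0.813) and 1.90 for exponential against chronic (SE 0.52, adjusted p = 0.748). Exponential array 4 lay inside the chronic range, and without it the exponential differences were 0.92 against wild type (adjusted p = 0.368) and 2.25 against chronic (adjusted p = 0.298). Exponential arrays 1, 3 and 5, where Ccr7 was highest, also had the highest summed B-cell markers (8.86, 8.58 and 7.83). The part of B-cells in the Ccr7 values was not tested. Gabarapl1, an autophagy gene, was 0.50 lower in exponential than in wild-type arrays (SE 0.15, adjusted p = 0.248), and Bcl6, a transcriptional repressor, 0.67 lower in all leukemias than in wild type (SE 0.20, adjusted p = 0.200). The Bcl6 difference was -0.35 without wild type replicate 1 and -0.95 without wild type replicate 2.

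Btg1 and Bcl2l11 are described because their upstream sequences are printed, not by the rule for named genes. Btg1, an inhibitor of proliferation, differed by -0.81 in chronic against wild type (SE 0.19, adjusted p = 0.144). Bcl2l11, which encodes the pro-apoptotic BIM, differed in the opposite direction by 0.85 (SE 0.40, adjusted p = 0.511), or 0.32 without chronic replicate 2, with 3.86, 4.63, 3.69, 3.28 and 4.22 in exponential arrays, 3.47, 5.14 and 3.63 in chronic arrays, and 3.30, 3.33 and 3.05 in wild-type arrays. All chronic arrays were above all wild-type arrays for Bcl2l11, and exponential array 4 was within the wild-type range. The CD4 markers given above for the phosphatases differ in the same comparisons of FOXO targets with wild type, and their part was not tested.

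In the TSC and mTORC1 branch 0 of 8 measured genes were called. Rheb, the GTPase that activates mTORC1, was at 6.32, 6.27, 6.49, 6.32 and 6.32 in exponential arrays, at 6.43, 6.22 and 6.35 in chronic arrays, and at 5.39, 6.01 and 6.13 in wild-type arrays. All 8 leukemia arrays lay above the 3 wild-type arrays, of which array 1 was the lowest. The difference for all leukemias against wild type was 0.50 (SE 0.13, adjusted p = 0.136), and 0.27 without wild type replicate 1. Tsc1, a subunit of the TSC complex that inactivates Rheb, was 0.55 higher in exponential than in chronic arrays (SE 0.16, adjusted p = 0.756) and 0.25 lower in chronic than in wild-type arrays (adjusted p = 0.543). Eif4ebp2, a translation repressor downstream of mTORC1, was 0.31 higher in exponential than in wild-type arrays (adjusted p = 0.575), and 0.20 without wild type replicate 3. Tsc2 was 0.17 lower in exponential than in chronic arrays (adjusted p = 0.871), and Akt1s1, an mTORC1 subunit phosphorylated by AKT, 0.17 higher in all leukemias (adjusted p = 0.698).

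Of the 5 other AKT substrates measured, 0 were called. Tbc1d4, which controls glucose transporter traffic, was at 2.92, 2.54, 3.04, 5.02 and 2.89 in exponential arrays, at 2.53, 2.27 and 2.22 in chronic arrays, and at 3.24, 3.28 and 3.84 in wild-type arrays. Exponential array 4 had the highest value of all, and the other leukemia arrays lay below wild type. The difference was -1.12 for chronic against wild type (SE 0.19, adjusted p = 0.0666, called with the dimmer genes left out and with trend and robust fitting) and -0.17 for exponential against wild type (adjusted p = 0.957), or -0.61 without exponential replicate 4 (adjusted p = 0.170). Gsk3b and Gsk3a, kinases that AKT inhibits, differed by -0.17 and -0.16 in exponential against wild type (adjusted p = 0.823 and 0.787), and without exponential replicate 4 Gsk3b differed by -0.11. Bad, a pro-apoptotic substrate, was 0.16 lower in exponential than in chronic arrays (adjusted p = 0.904), and differed by -0.083 without exponential replicate 4.

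**Figure D5:**
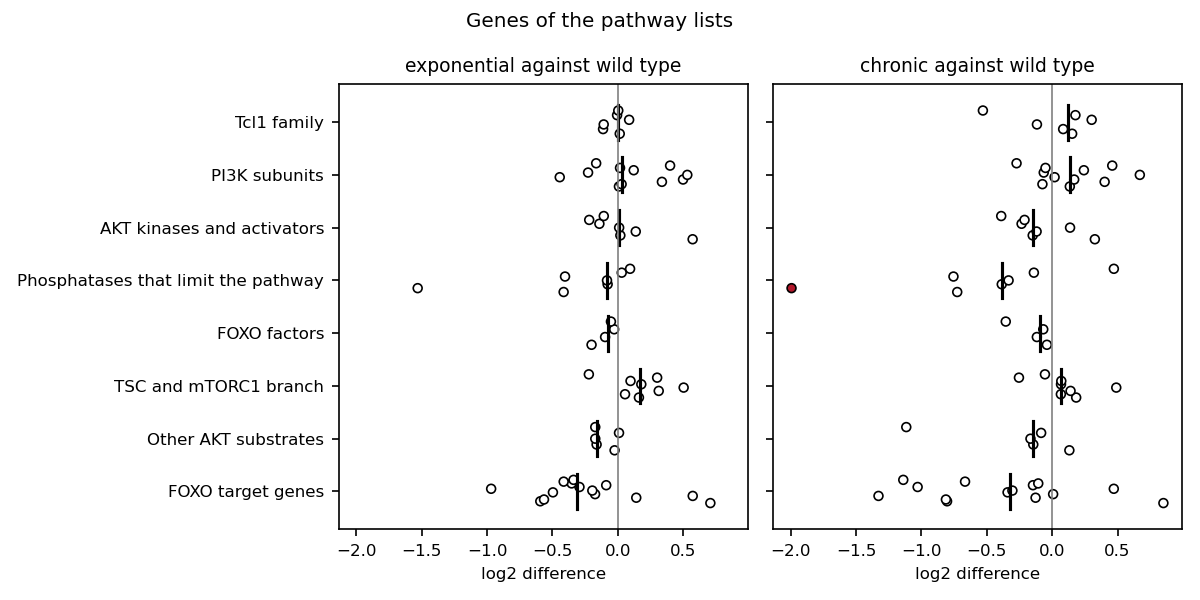
Log2 difference (horizontal axis) of every measured gene of the 8 pathway lists for exponential against wild type and chronic against wild type. Circles are genes, the filled circle is a called gene, and vertical bars are list medians. Inpp4b in chronic against wild type, at -1.99, is the only filled circle.

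Over all lists together, 1 of 62 measured genes was called in chronic against wild type, in the lower direction, and 0 in the other 3 comparisons. At an unadjusted limma p under 0.05 there were 16 of the 62 genes (25.8%) in chronic against wild type, against 11.16% of all genes. There were 12 (19.4%) in exponential against wild type, against 9.78%, 8 (12.9%) in exponential against chronic, against 6.25%, and 11 (17.7%) in all leukemias against wild type, against 10.57%. With the dimmer genes left out, 1487 of 9968 genes reached that p in chronic and 1299 of 9968 in exponential against wild type. No such count was made for the listed genes. The lists were chosen with earlier results of these data known. The groups did not overlap for 35.5% of the 62 genes in chronic against wild type, against 15.8% of all genes, and for 12.9% in exponential against chronic, against 4.55%. In exponential against wild type it was 6.5% against 6.78%, and in all leukemias against wild type 6.5% against 3.31%.

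The genes whose pattern over the 11 arrays was most like each of the 9 were found by Pearson's r among the 9967 genes with a mean above the median gene, as a description only, since all arrays share 1 normalization and the groups shape every pattern. For Akt1 they were Snora52, Ltbp3 and Sox6os (r = 0.90, 0.87 and 0.87). For Pik3r1 they were Suclg2, Pum3 and Rps19-ps3 (r = 0.92, 0.91 and 0.91), and for Pik3cd Gngt2, Scarna13 and Scarna8 (r = 0.91, 0.89 and 0.88). Inpp5d was matched by Ahcyl2, Eif2ak3 and Fsd1 (r = 0.90, 0.90 and 0.85), and Foxo1 by Phc2, Emp3 and Hopx (r = 0.92, 0.88 and 0.86). Foxo3 was matched by Acox3, Smim10l1 and Faap100 (r = 0.87, 0.85 and 0.83), the brighter Akt2 row by Madd, Btbd2 and Notch1 (r = 0.87, 0.86 and 0.86), and Tcl1b1 by Ppil3, Washc3 and Klhl7 (r = 0.91, 0.91 and 0.90). Tcl1 was below the median gene and was given no match.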

How the data were processed

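The deposited expression values are log2 values. By the study's methods, the authors background-corrected the arrays by RMA and quantile-normalized them with the affy package of R (version not given in the sources used here). All arrays held the same distribution, between 0.775 and 13.5 with a median of 2.30, a range from which base 2 was inferred. Without detection calls a dim value may be background. Precision is limited by how many arrays there are.

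Of 34760 rows, 21640 carried 1 symbol in the platform annotation, 1321 several and 11799 none. Entrez identifiers of 21553 rows were found in RefSeq (GRCm38.p6), and 0 symbols were updated. The row with the highest mean was kept for each of 954 genes with several rows, leaving 19937 genes without a filter on dim rows. The annotated rows nearest in number to each member's row were compared by chromosome.

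Each comparison was fitted on its own arrays by lmFit and eBayes of limma (version 3.58.1, R version 4.3.3), with Benjamini-Hochberg adjustment over all genes, after the study, which set each phase against its controls. The 9 genes, the pathway lists and the marker lists were chosen with earlier results of these data known. Named genes are the 9, the measured Tcl1 family, every called gene of a list, and otherwise the 2 genes of a list with the smallest p in each comparison. Promoter windows came from RefSeq and all 9 genes were matched by symbol. Alternatives were 1 fit over all groups, a replicate block, array weights, trend and robust fitting, cyclic loess, median scaling, no fold threshold, the mean of all rows, all rows together, leaving out the dimmer genes, the methods' t-test, and leaving out each array. The other Akt2 row was added after seeing the data.

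Tested on simulated data of all 19937 genes with 100 genes changed 2-fold and 100 changed 4-fold, the fit recovered 60 and 96 of them in chronic against wild type, 77 and 95 in exponential against wild type, 71 and 94 in exponential against chronic, and 86 and 97 in all leukemias against wild type. Figures used Python 3.11.15, numpy 2.4.6, pandas 2.3.3 and matplotlib 3.10.9.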

Additional observations from a re-analysis of the deposited data

Results flagged for a closer look

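Among the 39 named genes, 3 had an exponential array apart from the other 4 by Dixon's criterion at its 95% level, and chance gives about 1 in 20. Gsk3b was at 5.48 in exponential array 5, with the nearest array at 4.95. Rheb was at 6.49 in exponential array 3, with the nearest at 6.32. Tbc1d4 was at 5.02 in exponential array 4, with the nearest at 3.04, in the array whose Cd8a and Cd4 values go against the CD8 enrichment. Without these arrays the differences against wild type were -0.29 for Gsk3b (limma adjusted p = 0.478), 0.47 for Rheb (adjusted p = 0.491) and -0.61 for Tbc1d4 (adjusted p = 0.170), none of them called, as with all arrays.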

How the results depend on the processing

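None of the 9 genes was called under any alternative run, and Tcl1 was not among the genes tested when the dimmer genes were left out. Of their differences, 349 of 360 under other settings and 274 of 297 with an array left out kept their direction and their side of the threshold. For the other listed genes these were 551 of 566 and 458 of 479. Over all genes the number called lay between 0 and 154 for chronic against wild type, 4 and 221 for exponential against wild type, 0 and 2 for exponential against chronic, and 46 and 273 for all leukemias against wild type, over the alternatives run. The counts of 221 and 273 came without exponential replicate 4. Chronic against wild type gave 8, 14 and 18 genes without wild type replicate 1, 2 and 3, and exponential against wild type 32, 16 and 26. Sesn3 in chronic against wild type was called in 1 fit over all groups, with the replicate block and with trend and robust fitting (limma adjusted p = 0.0304, 0.0354 and 0.0487). Tbc1d4 in the same comparison was called with the dimmer genes left out and with trend and robust fitting (adjusted p = 0.0442 and 0.0149). Phlpp1 in that comparison was called in 1 fit over all groups, with median scaling, with trend and robust fitting and with array weights (adjusted p = 0.0354, 0.0418, 0.0445 and 0.0373), and Ccr7 with the replicate block (adjusted p = 0.0283).

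The replicate numbers were not taken to pair arrays, since the labels name no pairs. Same-numbered arrays deviated together with correlations between -0.04 and 0.18. Differently numbered arrays were not compared, so these correlations cannot decide whether the numbers pair arrays. With the replicate block, 0 of the 9 genes were called and 110, 139, 0 and 264 genes were called in the same comparisons. Numbers 4 and 5 occur only among exponential arrays, so the block takes up these arrays whole. Block differences that involve the exponential group therefore rest on its arrays 1, 2 and 3 alone. For Inpp4b in all leukemias the replicate block gave -1.76 with an adjusted p of 0.0156, and for Inpp4a -0.65 with an adjusted p of 0.0222. With the block, and so without exponential arrays 4 and 5, the direction turned for several differences. In exponential against wild type these were Akt2 (-0.075), Foxo1 (0.029), Foxo3 (0.073) and Tcl1b4 (0.044). In exponential against chronic they were Foxo1 (0.070) and Tcl1b2 (-0.081), and in all leukemias Tcl1b1 (0.027).

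Other settings turned differences close to 0. Array weights gave 0.08 for Akt2 in all leukemias, -0.11 for Tcl1b2 in exponential against chronic and 0.028 for Tcl1b4 in exponential against wild type. Cyclic loess gave -0.0019 for Foxo3 in exponential against chronic and -0.00022 for Tcl1b5 in exponential against wild type, where median scaling gave -0.013 for Tcl1b5 and -0.0019 for Tcl1. The mean of both Akt2 rows gave -0.063 for exponential against wild type, and the other row gave -0.15, and -0.050 for exponential against chronic. The cause was not tested for any of these.

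Leaving out 1 array turned the direction of further differences. In chronic against wild type the range was -0.31 to 0.12 for Akt2, -0.20 to 0.077 for Foxo1, -0.035 to 0.22 for Tcl1b1, -0.24 to 0.034 for Tcl1b2, -0.019 to 0.39 for Tcl1b4. In exponential against wild type the range was -0.14 to 0.29 for Akt2, -0.25 to 0.012 for Foxo3, -0.19 to 0.011 for Inpp5d, -0.028 to 0.051 for Tcl1, -0.086 to 0.064 for Tcl1b4, -0.24 to 0.25 for Tcl1b5. In all leukemias against wild type the range was -0.21 to 0.23 for Akt2, -0.26 to 0.0042 for Foxo3, -0.16 to 0.049 for Tcl1b1, -0.018 to 0.13 for Tcl1b4, -0.44 to 0.045 for Tcl1b5. In exponential against chronic the range was -0.30 to 0.0041 for Foxo1, -0.042 to 0.11 for Foxo3, -0.58 to 0.18 for Pik3r1, -0.14 to 0.13 for Tcl1b2, -0.39 to 0.013 for Tcl1b4.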
